A study of Mus musculus with 4 samples.

Results

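The R-spondin family described here comprised 9 genes of 25206 probe sets measured in forelimbs of mouse embryos. It held 4 secreted ligands (Rspo1, Rspo2, Rspo3 and Rspo4), 3 receptors (Lgr4, Lgr5 and Lgr6) and 2 membrane ubiquitin ligases (Znrf3 and Rnf43). The genes were chosen by their shared function and with the genotype differences on these same arrays in view, so their levels and differences are descriptions and were given no test of their own. Each gene had 1 probe set, named by its Entrez Gene identifier, and all 9 were bright enough to enter the comparison of 14095 genes.

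The arrays compared Shox2 knockout forelimbs with wild-type forelimbs at stage E11.5, both of the C57BL/6 strain. The arrays labelled knockout come from embryos with Shox2, the gene of a homeodomain transcription factor of the proximal limb, knocked out; the allele, and whether the deletion was limited to some cells, were not given in the labels. Each genotype had 2 arrays, numbered 48 and 50 in their titles, and each array carried the RNA of pooled limbs, from 3 to 4 embryos per the series' design. The labels name no treatment.

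R-spondins are secreted proteins that amplify WNT signalling. Znrf3 and Rnf43 mark Frizzled receptors for removal from the cell surface, and an R-spondin bound to an LGR receptor draws the ligases away, which leaves more WNT receptor in place. Both ligase genes and Lgr5 are known as WNT targets in many tissues, and the ligases thereby act in feedback. In the mouse limb Rspo2 is known from the apical ectodermal ridge, the epithelial rim that sustains outgrowth. Rspo2 and Rspo3 act partly redundantly in limb development.

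Promoter sequence is shown for the 3 genes with non-overlapping genotypes that had an entry in the RefSeq promoter table (GRCm38.p6), because the ligands Rspo1 and Rspo4 lay on the lower side in the knockout and the receptor gene Lgr4 on the higher side. Each line gives the 250 bases before the annotated start, 5′ to 3′, on the plus strand. Capitals mark the letters TAAT, a core of many homeodomain binding sites, or CTTTG, a core of TCF/LEF sites, each searched on both strands, where ATTA and CAAAG are the reverse complements. The letters of the 4 search words do not overlap one another in these windows. The windows lie at chr4:124986180-124986429 (Rspo1), chr2:151842677-151842926 (Rspo4) and chr2:109917397-109917646 (Lgr4).
Rspo1: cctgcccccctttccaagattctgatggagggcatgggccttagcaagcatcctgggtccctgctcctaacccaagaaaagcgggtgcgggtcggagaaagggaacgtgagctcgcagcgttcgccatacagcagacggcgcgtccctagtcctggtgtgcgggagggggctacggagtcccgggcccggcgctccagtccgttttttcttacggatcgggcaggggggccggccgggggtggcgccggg
Rspo4: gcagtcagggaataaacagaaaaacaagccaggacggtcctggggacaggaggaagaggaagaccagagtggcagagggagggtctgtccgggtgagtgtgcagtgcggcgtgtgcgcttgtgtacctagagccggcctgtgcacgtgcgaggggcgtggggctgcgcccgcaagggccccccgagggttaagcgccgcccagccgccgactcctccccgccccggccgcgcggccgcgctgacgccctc
Lgr4: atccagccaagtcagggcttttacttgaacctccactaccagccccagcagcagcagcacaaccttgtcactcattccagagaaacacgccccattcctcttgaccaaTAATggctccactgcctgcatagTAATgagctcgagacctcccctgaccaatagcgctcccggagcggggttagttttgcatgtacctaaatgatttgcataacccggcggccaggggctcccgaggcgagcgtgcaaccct

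The table matched 5 of the 9 genes, with 6 windows, since Rnf43 had 2 starts. Rspo3 and Lgr5, whose genotypes also did not overlap, had no entry, and neither had Rspo2 and Znrf3. The Lgr4 window held 2 matches to TAAT, and of the 2 Rnf43 windows 1 held a single match to it. The Rspo1, Rspo4 and Lgr6 windows held none. No window of these 5 genes held CTTTG. Among all 32851 windows of the same length, 54.9% held TAAT and 48.6% held CTTTG on either strand. The GC content was 66.8% upstream of Rspo1, 69.6% upstream of Rspo4, 65.2% upstream of Lgr6, 55.6% upstream of Lgr4 and 44.4% and 45.2% in the Rnf43 windows, against a median of 52.4% over all windows. A match is only a run of letters in the reference, and its absence says that these letters are not in this window.

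As checks of the arrays, Shox2 read 9.58 and 8.88 in knockout pools against 10.57 and 10.37 in wild-type pools (log2), a difference of -1.24 ± 0.21 (SE, n = 2) that limma did not call (adjusted p = 0.322). Much Shox2 signal thus remained in the pools labelled knockout, and where its probes lie relative to the deletion is not known here. The forelimb gene Tbx5 lay between 12.25 and 12.48 on all 4 arrays and the hindlimb gene Pitx1 was below the brightness filter. The pools also differed in sex-linked transcripts. Uty, Kdm5d and Eif2s3y, all Y-linked, read at least 8.83 in the knockout and at most 5.56 in the wild type. Xist was lower by 1.01 on the log2 scale in the knockout. Every difference below was measured between pools that differed in this way too. Fewer cells of a type and less RNA per cell cannot be told apart in such pools. The labels give 2 pregnancies as the source of the embryos but not which array held which, and p-values measure only the spread between these pools.

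Among the ligands, Rspo3 had higher and Rspo1 lower values in each knockout pool than in either wild-type pool. Rspo3, a ligand known from limb mesenchyme and from blood vessel formation, read 10.14 and 9.99 on the knockout arrays 48 and 50. On the wild-type arrays it read 9.25 and 9.46 (log2 expression). The groups did not overlap, and the lowest knockout value stood 0.53 above the highest wild-type value. The knockout mean of 10.07 ± 0.11 exceeded the wild-type mean of 9.35 ± 0.15 (SD, n = 2 pools each) by 0.71 ± 0.10 on the log2 scale (SE), which is 1.64-fold. Arrays numbered 48 gave a difference of 0.89 and arrays numbered 50 gave 0.53. By size it held place 21 from the top among the 14095 genes.

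Rspo1, a ligand known for its part in ovary development, ran the other way. It read 7.44 and 7.67 on the knockout arrays 48 and 50, and 8.16 and 7.93 on the wild-type arrays. The 2 groups were separated by 0.26. The means were 7.56 ± 0.16 and 8.05 ± 0.16 (SD, n = 2), a log2 difference of -0.49 ± 0.12 (SE), equal to 1.40-fold. Arrays numbered 48 gave -0.72 and arrays numbered 50 gave -0.26. It stood at place 52 from the bottom among the genes tested. As for every gene here, the Rspo1 values come from pools that differed in sex-linked transcripts along with genotype. Uty, Kdm5d and Eif2s3y were higher in each knockout pool than in either wild-type pool. A part of this sex-linked difference in the limb value of Rspo1 was not tested, because these arrays cannot separate that difference from genotype. The differences of Rspo3 and Rspo1 lay 1.20 apart on the log2 scale.

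**Figure D1:**
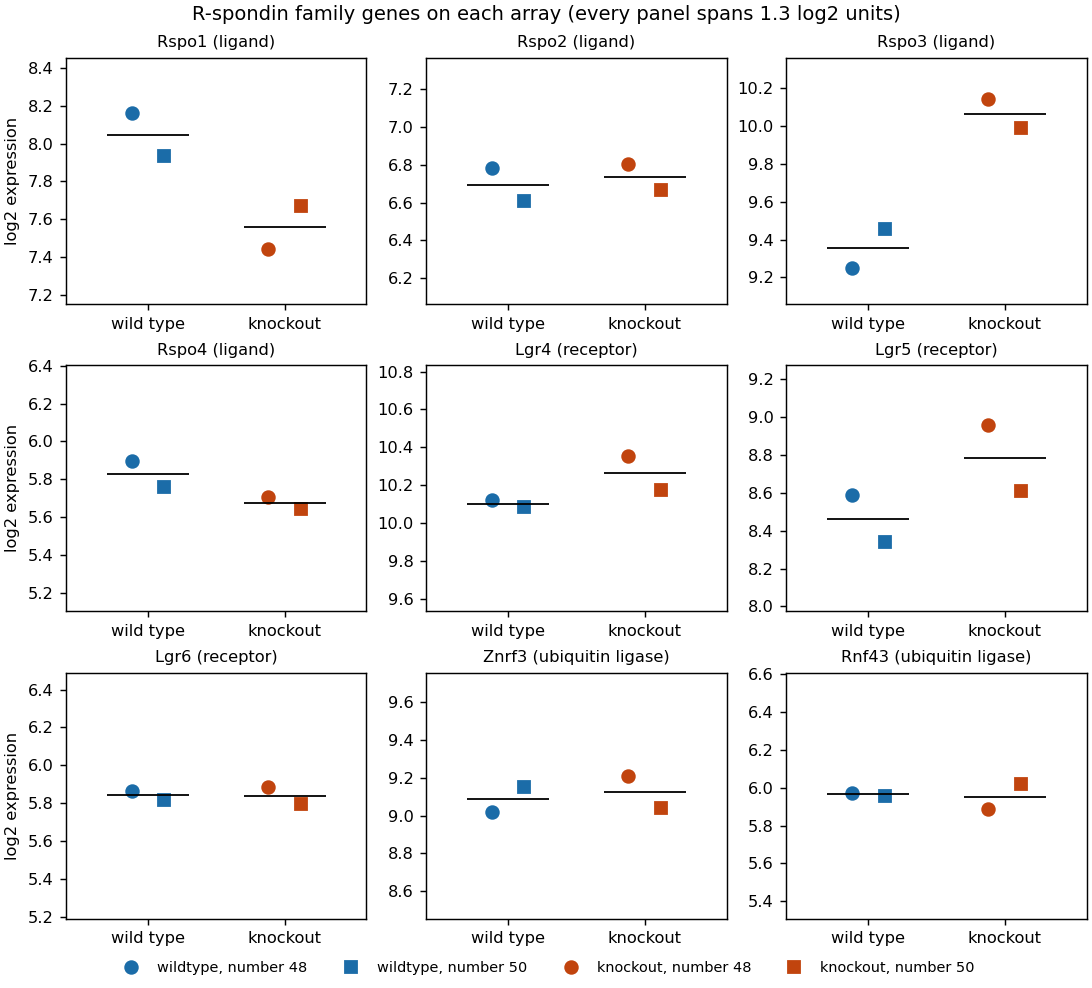
Log2 expression (y axis) of the 9 genes on the wild-type (blue) and knockout (red) arrays numbered 48 (circles) and 50 (squares); black lines are group means and every panel spans the same range of log2 units. Rspo3 (10.14 and 9.99 in the knockout) and Rspo1 (7.44 and 7.67) are set apart from their wild-type values, while Rspo2, Lgr6, Znrf3 and Rnf43 overlap between the genotypes.

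Rspo4, a ligand known for nail development, was dim on all arrays. It read 5.71 and 5.64 in knockout pools against 5.90 and 5.76 in wild-type pools, with a difference of -0.15 ± 0.088 (log2, SE, n = 2). The groups did not overlap, but the gap between them was 0.049. Without wild-type array 48 the difference was -0.081. A log2 level of 5.60 was the lowest mean that entered the comparison, and differences this close to the bottom of the range are compressed.

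Rspo2, the ridge ligand, did not separate the genotypes. It read 6.80 and 6.66 in knockout pools against 6.78 and 6.61 in wild-type pools. Its difference was 0.040 ± 0.098 (log2, SE, n = 2), smaller than its SDs of 0.098 and 0.12. Both genotypes read lower on array 50, by 0.14 in the knockout and by 0.17 in the wild type. Of the 10 ridge markers listed, 7 could be tested, and 4 of these had higher and 3 lower means in the knockout. Of the 7, 3 did not overlap between genotypes, all of them higher, where 42.0% of all genes did not overlap. An unadjusted p under 0.05 in limma was found for 1 of the 7 and for 10.2% of all genes. The defining ridge genes Fgf8, Sp6 and Sp8 were too dim for the comparison in these whole-limb pools. The summed level of all 10 ridge markers (log2 of the summed linear values) ran from 10.02 to 10.15 in the knockout and from 10.00 to 10.10 in the wild type. Dlx5 was the brightest of them, at 8.72 and 8.21 in knockout pools against 8.49 and 8.62 in wild-type pools. Such a sum follows the brightest markers and says little about the dimmer ones.

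The receptor genes Lgr4 and Lgr5 read higher in both knockout pools, by less than Rspo3. Lgr5, which marks stem cells of several epithelia, read 8.96 and 8.61 on the knockout arrays 48 and 50 and 8.59 and 8.34 on the wild-type arrays. The lowest knockout value exceeded the highest wild-type value by 0.021. The difference was 0.32 ± 0.14 (log2, SE, n = 2), or 1.25-fold. Lgr5 was lower on array 50 within each genotype, by 0.35 in the knockout and by 0.25 in the wild type. These differences between array numbers are close in size to the genotype difference. Taken by number, the genotype difference was 0.37 (arrays 48) and 0.27 (arrays 50). It was 0.15 without knockout array 48, 0.50 without knockout array 50 and 0.20 without wild-type array 50.

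Lgr4, the most broadly expressed of the LGR receptors, read 10.35 and 10.17 in knockout pools against 10.12 and 10.08 in wild-type pools. The groups were separated by 0.053. The difference was 0.16 ± 0.092 (log2, SE, n = 2), or 1.12-fold. It was 0.071 without knockout array 48 and 0.25 without knockout array 50. The knockout pools spread more (SD 0.13) than the wild-type pools (SD 0.026). Lgr6, a receptor known from hair follicle stem cells, was dim, at 5.88 and 5.79 in knockout pools against 5.86 and 5.82 in wild-type pools. Its difference of -0.0023 ± 0.082 lay within the spread of either group.

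Neither ubiquitin ligase gene separated the genotypes. Znrf3 read 9.21 and 9.04 in knockout pools against 9.02 and 9.15 in wild-type pools. Its difference was 0.038 ± 0.097 (log2, SE, n = 2). Its sign differed by number, with 0.19 on arrays 48 and -0.11 on arrays 50. Rnf43 was dim, with 5.89 and 6.02 in knockout pools against 5.97 and 5.96 in wild-type pools, and a difference of -0.011 ± 0.085. Its sign also differed between array numbers (-0.087 for 48 and 0.064 for 50). With 2 pools per genotype, an overlap does not show that the levels are equal.

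Over the family, 5 of 9 genes had non-overlapping genotypes, 3 of them higher (Rspo3, Lgr5 and Lgr4) and 2 lower (Rspo1 and Rspo4). Over all tested genes 42.0% did not overlap, 22.1% higher and 19.9% lower. By role this was 1 ligand higher, 2 lower and 1 overlapping, 2 receptors higher and 1 overlapping, and both ligases overlapping. The median difference was 0.038 in the family and -0.00098 over all genes. In 6 of 9 genes the sign was the same for both array numbers. In limma's test over all genes 0 of the 9 were called (adjusted p under 0.05), where 0.0213% of all genes were called. The genes called were the 3 Y-linked genes Uty, Kdm5d and Eif2s3y, and Shox2 was not among them. That fit took no account of array number, and the calls with the number included are given under the dependence on processing. An unadjusted p under 0.05 was found for 2 of 9, Rspo3 and Rspo1, and for 10.2% of all genes. Only Rspo3 differed by at least 1.5-fold, which 0.404% of all genes did. Because the members were chosen with this contrast in view, nothing is read from these counts.

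**Figure D2:**
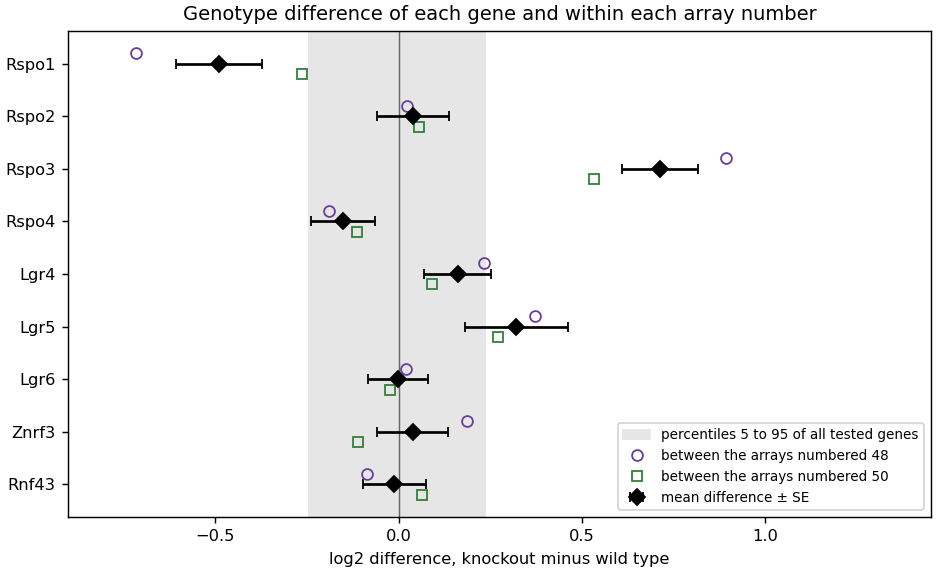
Log2 difference between knockout and wild type (x axis) for each gene: diamonds with bars give the mean and its SE from the fit (n = 2 pools per genotype), open circles and squares the difference between the arrays numbered 48 and 50, and the grey band percentiles 5 to 95 of all tested genes (-0.245 to 0.236). Rspo3, Rspo1 and Lgr5 have both open symbols outside the grey band, whereas Znrf3, Lgr6 and Rnf43 change sign between array numbers. The band describes differences of genotype means, as the diamonds do, and is no yardstick for the open symbols, which rest on single arrays.

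The other WNT pathway genes were taken from 6 lists of 92 genes in all, of which 84 could be tested. In the same limma fit, without array number, 0 of the 84 were called over all genes, with adjusted p of 0.322 at the smallest. An unadjusted p under 0.05 was found for 11 (6 higher and 5 lower), or 13.1% of them, against 10.2% of all genes. Their median difference was 0.026, and 34 of 84 (40.5%) did not overlap between genotypes. The values that follow are those of the 2 genes with the smallest unadjusted p in each list, and none of them passed.

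Of 15 WNT ligand genes tested, 10 had higher and 5 lower means, with a median difference of 0.037. Wnt5a, a ligand of distal outgrowth, read 9.54 and 9.64 in knockout pools against 9.29 and 9.40 in wild-type pools, a difference of 0.25 ± 0.087 (log2, SE, n = 2). Wnt2b was dim, at 5.79 and 5.77 in knockout pools against 6.01 and 5.90 in wild-type pools, and differed by -0.17 ± 0.082. Among 15 receptor genes, including those of the Frizzleds that the ligases remove, 11 had higher means and the median was 0.026. The WNT5A receptor gene Ror1 read 10.54 and 10.51 in the knockout and 10.77 on both wild-type arrays (-0.25 ± 0.077). Fzd9, a Frizzled gene, was dim too, at 6.07 and 6.21 in knockout pools against 5.92 and 6.00 in wild-type pools. It differed by 0.18 ± 0.089.

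The 17 genes of intracellular signal transduction were divided, 9 higher and 8 lower, with a median of 0.038. The destruction complex gene Axin1 differed by 0.21 ± 0.085 and the coactivator gene Bcl9l by 0.16 ± 0.080 (log2, SE, n = 2). The 15 inhibitor genes had 10 higher means and a median of 0.046. An unadjusted p under 0.05 in limma was found for 4 of the 15, 2 in each direction, and for 10.2% of all genes. The secreted inhibitor gene Wif1 was the only other WNT gene at least 1.5-fold different. It read 8.91 and 8.69 in knockout pools against 9.36 and 9.50 in wild-type pools, a difference of -0.63 ± 0.11. Dkk3, a relative of the Dickkopf inhibitors, differed by 0.22 ± 0.077.

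Genes that answer to WNT signalling showed no common direction. Of 13 tested, 8 had higher and 5 lower means, with a median of 0.033. An unadjusted p under 0.05 in limma was found for 3 of the 13, 2 higher and 1 lower, and for 10.2% of all genes. Myc, a growth regulator, read 9.29 and 9.17 in knockout pools against 9.46 and 9.69 in wild-type pools (-0.35 ± 0.11, log2, SE, n = 2). Nkd2, a feedback inhibitor acting on Dishevelled, read 10.20 and 10.15 against 9.97 and 9.76 (0.31 ± 0.096). The widely used WNT target gene Axin2, named after its values were seen, read 9.05 and 8.70 in knockout pools against 8.80 and 8.77 in wild-type pools, so the genotypes overlapped. By number its difference was 0.26 (arrays 48) and -0.066 (arrays 50). Znrf3, itself such a target, also changed sign between the array numbers, as given above.

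Other proteins reported to bind R-spondins or LGR receptors, most of them at the cell surface, gave 3 higher and 6 lower means among 9 tested genes, with a median of -0.040. The syndecan gene Sdc4, a known partner of RSPO3, read 7.04 and 7.03 in knockout pools against 7.25 and 7.26 in wild-type pools (-0.21 ± 0.077, log2, SE, n = 2). The glypican gene Gpc6 differed by 0.12 ± 0.098.

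**Figure D3:**
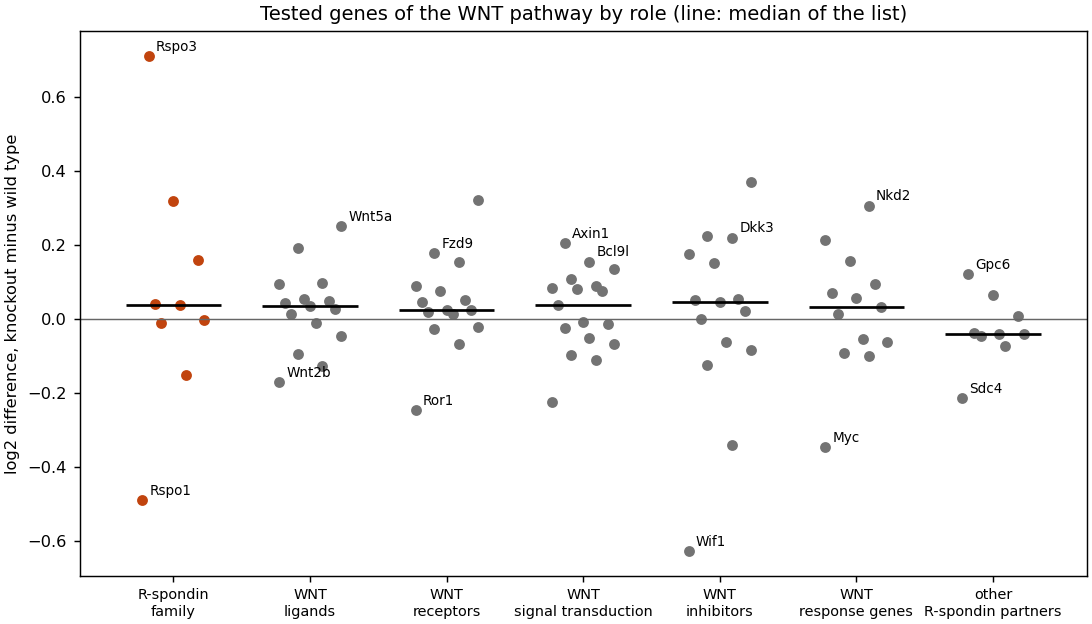
Log2 difference between knockout and wild type (y axis) of every tested gene in the R-spondin family (red) and in 6 lists of other WNT genes (grey); bars are list medians and labels mark genes named in the text. List medians lie between -0.040 and 0.046, and Rspo3 (0.71), Wif1 (-0.63) and Rspo1 (-0.49) lie farthest from 0.

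The genes whose profile over the 4 arrays lay closest to Rspo3 and Rspo1 were found by Euclidean distance, after the mean of each gene was subtracted. For Rspo3 they were Trav8d-1 (distance 0.13), Thsd7a (0.16), Olfr884 (0.16) and Mir5129 (0.19). Their genotype differences ran from 0.56 to 0.81. Trav8d-1 and Olfr884 belong to families with close copies, so their probe sets are uncertain. For Rspo1 they were Ube2f (0.042), Trim21 (0.054), Pvr (0.058) and Mcoln3 (0.11), with differences from -0.52 to -0.40. With 4 arrays, such likeness describes the arrays and no more.

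**Figure D4:**
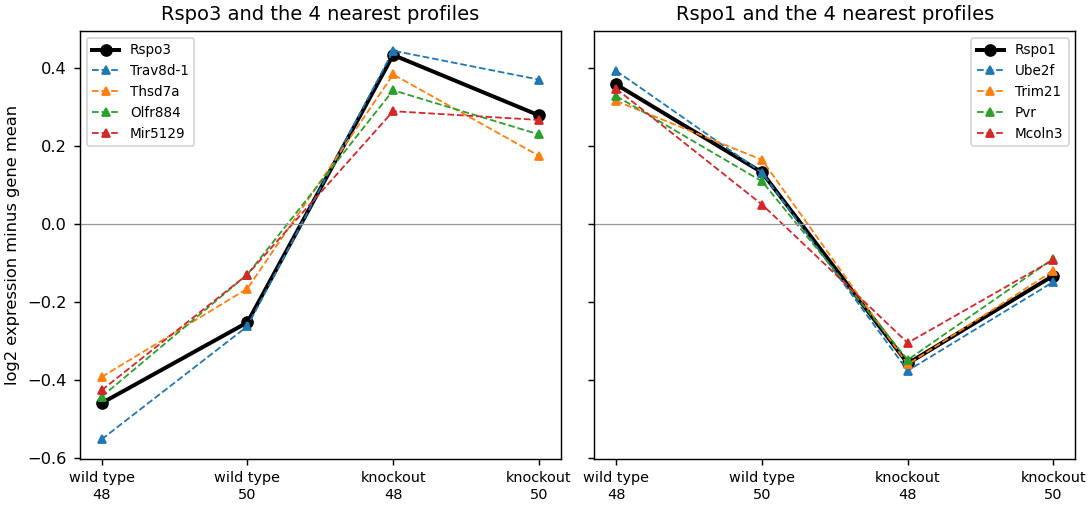
Log2 expression minus the mean of each gene (y axis) on the 4 arrays (x axis) for Rspo3 (left) and Rspo1 (right) in black, with the 4 nearest profiles dashed. The lines join arrays only to make a profile visible; both ligands differ most between the arrays numbered 48, by 0.89 for Rspo3 and -0.72 for Rspo1.

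Values of other limb cell markers follow, for lists in which limma called 0 genes. The 10 markers of distal mesenchyme all had higher means in the knockout, with a median difference of 0.41, and their summed level ran from 11.66 to 11.85 in the knockout and from 11.16 to 11.36 in the wild type. The 8 endothelial markers had 1 higher and 7 lower means, a median of -0.25, and a summed level of 12.18 to 12.26 against 12.38 to 12.40. An unadjusted p under 0.05 was found for 7 of the 10 distal genes and 3 of the 8 endothelial genes, and for 10.2% of all genes. The distal gene Msx2 was also on the list of WNT response genes. The part of the distal and endothelial genes in the differences of Rspo3, Rspo1 and the LGR receptors was not tested. The chondrogenic, muscle and macrophage lists had medians of -0.028, -0.055 and 0.044. The erythroid list had a median of -0.13, with 1 higher and 5 lower means among 6 tested genes. The neural list had a median of -0.17, with 2 higher and 3 lower means among 5 tested genes. By array number the neural medians were of the other sign, 0.030 (arrays 48) and 0.014 (arrays 50).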

How the data were processed

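Pooled forelimb RNA of 2 genotypes was measured on 4 arrays, 2 per genotype. The labels' protocols name TRIzol extraction and biotin-labelled cRNA made by the standard Affymetrix procedure. The authors deposited 1 table of log2 values, from 5.04 to 14.1. Its sorted columns differ by at most 0.00171, as after quantile normalization. The platform, background correction and probe summarisation are not stated in those sources. A brightness shift shared by most genes could not be seen in such values.

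Named genes no dimmer on average than percentile 40 of the table (log2 5.60) were compared with limma 3.58.1 (lmFit, eBayes) in R 4.3.3, two-sided, without a block, and p-values were adjusted by Benjamini-Hochberg over 14095 genes. SEs are those of that fit. The limma fit was also run on simulated data with independent noise, which held no deviation shared by arrays of the same number. The non-zero shifts put into them were larger than any difference in the family, so they do not bear on differences of this size. An exact permutation test of 2 against 2 arrays cannot go below p = 0.333. Members and lists were chosen with earlier results of these data known. Named genes were the members, Shox2, sex-linked genes, the 2 genes per WNT list with the smallest unadjusted p where fewer than 2 passed, and the 4 nearest profiles of the 2 members with the largest non-overlapping difference. Array number as a covariate, other filters, normalizations and variance models, and leaving out each array were the alternatives. Promoter windows were searched in Python 3.11.15, and plots drawn with matplotlib 3.10.9.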

Additional observations from a re-analysis of the deposited data

How the results depend on the processing

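A filter or a balanced block cannot change the difference of a gene, and leaving out 1 of 2 arrays cannot move it by more than the pooled SD, so the sizes of these moves say nothing about stability. The sign of Rspo2, Lgr6, Znrf3 and Rnf43 changed when some array was left out, and that of the other 5 did not. Without 1 array, Rspo3 ran from 0.609 to 0.816, Rspo1 from -0.603 to -0.377, Rspo4 from -0.222 to -0.0811, Lgr5 from 0.146 to 0.496 and Lgr4 from 0.0713 to 0.25. The family median ran from -0.0298 to 0.109 (0.109 without knockout array 50).

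The count of calls depended on the block for array number. With the replicate block, limma called 382 of the 14095 genes (203 higher and 179 lower) instead of 3. Among them were 2 of the 9 members, Rspo3 (adjusted p = 0.00953) and Rspo1 (adjusted p = 0.0432). Of the 84 other WNT genes 1 was called, Wif1 (adjusted p = 0.0140). The block left fewer residual degrees of freedom than the 2 of the main fit, so these p-values lean more on the spread pooled over all genes. Because the members were chosen with this contrast in view, nothing is read from these counts either. Across genes, the deviations of same-numbered arrays from their genotype means had r = 0.388. The labels do not say what the number marks, and 2 numbers cannot settle a pairing, so the block stayed an alternative. Without each array in turn 4 to 5 genes were called. In those 4 runs 0 members were called. Signal near the bottom of the range limits Rspo4, Lgr6 and Rnf43, and 2 arrays per genotype limit every difference.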

Other observations

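Surface ectoderm, the tissue from which the ridge forms, gave values not described above. Of 10 ectoderm markers tested, 7 had higher means in the knockout, with a median difference of 0.069, and limma called 0 of them (3 of 10 at an unadjusted p under 0.05, against 10.2% of all genes). The basal keratin gene Krt14 read 8.96 and 9.09 in knockout pools against 8.68 and 8.85 in wild-type pools. The simple-epithelium keratin genes Krt8 and Krt18, whose proteins pair with each other, differed in opposite directions, by 0.30 ± 0.10 and -0.29 ± 0.10 (log2, SE, n = 2). These keratin genes were named after their values were seen. The ectoderm marker Wnt7a was also on the list of WNT ligands.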
